A study of Arabidopsis thaliana with 9 samples.

Results

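Transcripts of the plant cell cycle machinery were followed across 9 Arabidopsis thaliana arrays: the A-, B- and D-type cyclins, cyclin-dependent kinases (CDKs) and the CKS proteins that dock on them, the KRP and SIM inhibitors, the kinase WEE1, the CCS52 activators, and the cytokinesis proteins KNOLLE and HINKEL. The genes were taken by function, from a list of 44 locus identifiers that does not hold every gene of these families. Of these 44 loci, 43 were among the 20777 loci measured: 7 B-type, 8 A-type and 9 of 10 D-type cyclins, 5 CDK or CKS genes, 8 inhibitors, 2 cytokinesis genes and 4 genes of the WEE1 and CCS52 group. CYCD7;1 (AT5G02110) was not analysed here. The 43 genes lie on all 5 nuclear chromosomes, and CKS1 and CKS2 on chromosome 2 are immediate neighbours.

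RNA came from what the labels call the vegetative part of Col-0 seedlings at stage 1.03. Seedlings grew on MS medium at 22 °C under days of 16 h light and 8 h dark, and the RNA was hybridised to Affymetrix ATH1 arrays. There were 3 biological repeats of each of 3 genotypes: wild type, a line labelled 35S::AVP1, in which the cauliflower mosaic virus 35S promoter should drive the vacuolar proton pump AVP1, and a line labelled for added expression of the brassinosteroid receptor BRI1. The series asks how leaves become larger in different ways. The values are log2 RMA levels, with array medians between 6.34 and 6.42 and a 10th percentile of 3.71 to 3.79. BRI1 rose by 2.73 on the log2 scale in its line (adjusted p = 7.75e-08), whose labels give both pBRI1::BRI1 and 35S::BRI1, so its promoter is not settled. AVP1 was not higher in the arrays that carry its label: its log2 difference from wild type was -0.09, with a 95% interval of -0.25 to 0.07 (adjusted p = 0.489). Whether these arrays hold RNA of another line, or the AVP1 probes miss the transgene, is not settled by the files, so they go by that label throughout. The design text also names a GRF5 line, which was not analysed here. All 3 groups share the Col-0 background, and the labels do not say how many independent transgenic lines were used.

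Plant cells commit to division when D-type cyclins, bound to the kinase CDKA, phosphorylate the retinoblastoma protein and release E2F factors that open S phase. A-type cyclins act from S phase to the start of mitosis, and B-type cyclins act in mitosis together with the plant-specific B-type CDKs, before the anaphase-promoting complex, switched on by CDC20 or CCS52 proteins, destroys the mitotic cyclins. In a growing leaf cells first divide and then enlarge, often while copying their DNA without division in the endocycle. KRP and SIM proteins inhibit CDKs, and SIM proteins together with the CCS52A activators favour the endocycle.

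Of the 43 genes, 5 were lower in the arrays labelled 35S::AVP1 than in wild type and none was higher, at an adjusted p under 0.05 in limma with Benjamini-Hochberg adjustment over all 20777 loci. A gene past this threshold is called here. The 5 were the mitotic cyclins CYCB1;1 and CYCB1;3, the mitotic kinase CDKB2;1, the cell plate protein KNOLLE and the G1 cyclin CYCD3;3, and their falls ran from 1.30-fold to 1.51-fold. The 5 calls are 11.6% of the genes, beside 11.1% of all loci called in either direction, so the share is near the background. By direction, the calls were all lower, where 4.76% of all loci were called lower and 6.31% higher. At an unadjusted p under 0.05 the count was 12 of 43, or 11 lower and 1 higher, beside 24.2% of all loci. In tissue of many cell types, fewer cells of a type and less RNA per cell cannot be told apart.

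In the BRI1 line none of the 43 genes was called against wild type in limma, and 4 had an unadjusted p under 0.05, all of them lower. Across all loci 0.0818% were called in this comparison, and 5.3% passed at the unadjusted threshold. The median log2 difference of the 43 genes was -0.07 in the arrays labelled 35S::AVP1 and -0.08 in the BRI1 line, beside 0.05 and -0.01 over all loci. Negative differences numbered 29 of 43 in the first comparison, where 36.9% of all loci were negative, and 30 of 43 in the second, where 53.3% were. After quantile normalization they numbered 32 and 29, beside 46.1% and 49.6% of all loci, and after median centring 31 and 29, beside 45.8% and 43.1%. With 1 array left out the median ran from -0.11 to -0.04 in the first comparison and from -0.10 to -0.04 in the second. The comparisons share the wild type arrays, so the counts are given side by side and not as independent results.

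B-type cyclins carry cells through mitosis. CYCB1;1 (AT4G37490, chromosome 4) is widely used as a marker of cells in G2 and M phase. Its level was 6.18, 6.33 and 6.01 in the wild type arrays, 5.74, 5.86 and 5.79 in the arrays labelled 35S::AVP1, and 5.99, 5.82 and 5.86 in the BRI1 line. Every array of either line lay below the lowest wild type array. In the arrays labelled 35S::AVP1 its log2 level fell by 0.38 (SE 0.0894, 95% interval -0.58 to -0.18, adjusted p = 0.0228). The log2 difference in the BRI1 line was -0.28, with an adjusted p of 0.689. The call did not hold in 4 of the 9 fits that each leave out 1 array, those without wild type replicate 1, wild type replicate 2, and replicates 1 and 3 labelled 35S::AVP1, where the adjusted p reached 0.0811.

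Its paralogue CYCB1;3 (AT3G11520, chromosome 3) read 6.69, 6.55 and 6.27 in wild type, 6.21, 6.02 and 6.14 in the arrays labelled 35S::AVP1, and 6.12, 6.26 and 6.31 in the BRI1 line. All 3 arrays labelled 35S::AVP1 lay below all wild type arrays, while 1 array of the BRI1 line lay above the lowest of them. The fall of 0.38 in the arrays labelled 35S::AVP1 (SE 0.107, 95% interval -0.62 to -0.14) passed narrowly, at an adjusted p of 0.0478. It was kept in 1 of the 9 fits that each leave out 1 array, the fit without wild type replicate 3, and the adjusted p reached 0.156 in the others. It was also lost with an intensity trend in the prior (0.0610), with only the 6 arrays compared (0.0895) and with the replicate number as a block (0.0593, all adjusted p).

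None of the other 5 listed B-type cyclins was called. CYCB2;4 (AT1G76310) came nearest, at a log2 difference of -0.35 in the arrays labelled 35S::AVP1 (adjusted p = 0.113) and -0.15 in the BRI1 line. Its wild type arrays read 5.95, 5.71 and 5.62, those labelled 35S::AVP1 5.53, 5.12 and 5.58, and those of the BRI1 line 5.63, 5.57 and 5.64. The arrays labelled 35S::AVP1 all lay below wild type, and the BRI1 line overlapped with it. CYCB1;4 (AT2G26760) differed by -0.25 and -0.08 on the log2 scale, in the same order of lines. For CYCB2;1 (AT2G17620), CYCB2;2 (AT4G35620) and CYCB3;1 (AT1G16330) every log2 difference from wild type lay between -0.16 and -0.05. All 7 listed B-type cyclins had a negative difference in each line, also with quantile normalization and with median centring. Their median difference was -0.25 in the arrays labelled 35S::AVP1 and -0.13 in the BRI1 line.

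**Figure D1:**
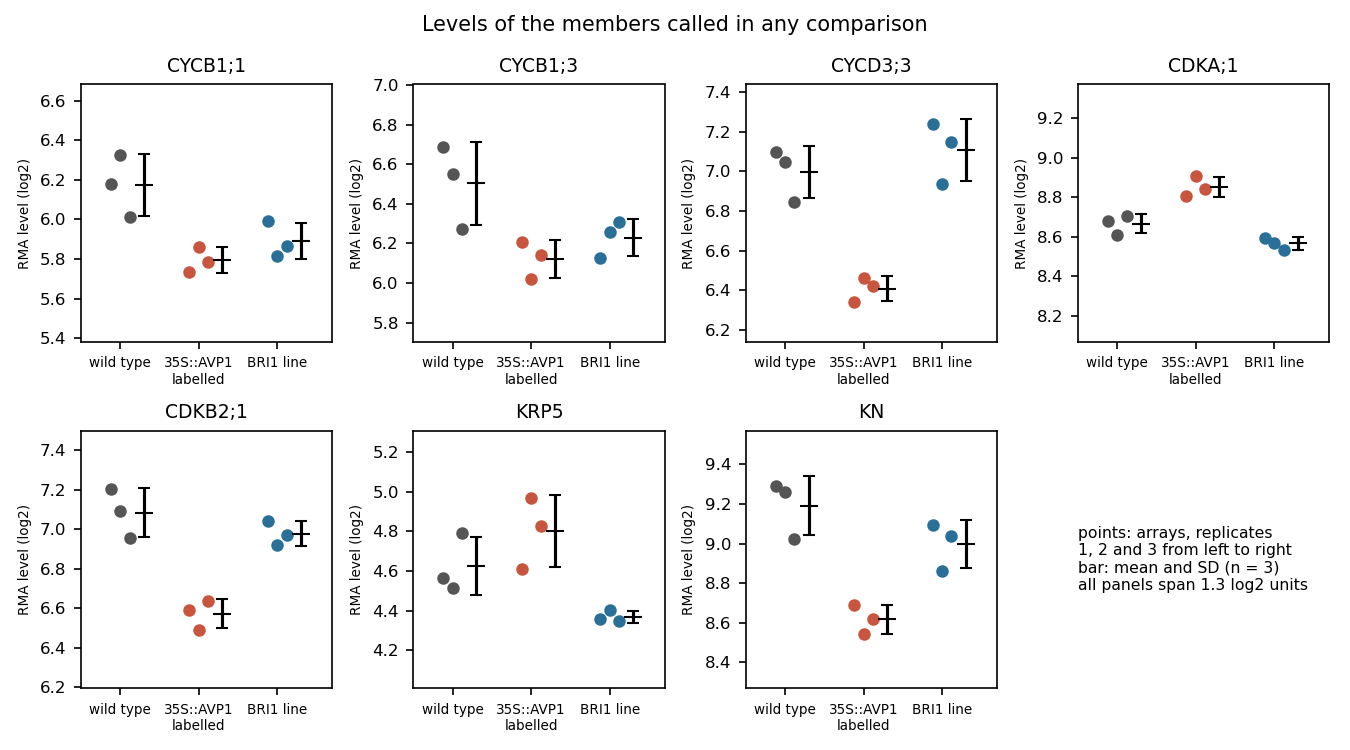
RMA levels (log2, vertical axis) of the 7 genes called in any comparison, with 1 point per array, a bar at the mean and an error bar of 1 SD over the 3 arrays of a genotype. Each panel spans the same number of log2 units, and 5 of the 7 genes have their 3 arrays labelled 35S::AVP1 below all 3 wild type arrays.

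Of the B2-type kinases, which drive mitosis, 1 of 2 fell in the arrays labelled 35S::AVP1. CDKB2;1 (AT1G76540, chromosome 1), a plant-specific kinase made from G2 to M phase, read 7.20, 7.09 and 6.95 in wild type, 6.59, 6.49 and 6.63 in the arrays labelled 35S::AVP1, and 7.04, 6.92 and 6.97 in the BRI1 line. The arrays labelled 35S::AVP1 lay below all 6 others, and wild type and the BRI1 line overlapped. Its log2 level fell by 0.51, or 1.42-fold (SE 0.0800, 95% interval -0.69 to -0.33, adjusted p = 0.00258), and the call held in all 9 fits without 1 array, at adjusted p up to 0.0134. The difference in the BRI1 line was -0.11, with an interval of -0.28 to 0.07. CDKB2;2 (AT1G20930), the second B2-type kinase, differed by -0.21 (adjusted p = 0.230) and -0.10 and was not called. Whether the 2 kinases differ from each other in their response was not tested.

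CDKA;1 (AT3G48750, chromosome 3) is the plant counterpart of yeast Cdc2 and acts both at the start of S phase and in mitosis. Its level was 8.68, 8.61 and 8.71 in wild type, 8.81, 8.90 and 8.84 in the arrays labelled 35S::AVP1, and 8.60, 8.57 and 8.53 in the BRI1 line. The 3 groups did not overlap, with the arrays labelled 35S::AVP1 highest and the BRI1 line lowest. Neither difference from wild type was called: 0.19 in the arrays labelled 35S::AVP1 (adjusted p = 0.0903) and -0.10 in the BRI1 line (adjusted p = 0.957). CKS1 (AT2G27960) and CKS2 (AT2G27970), the docking subunits, differed from wild type by -0.07 to -0.01 on the log2 scale in both lines.

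KNOLLE (KN, AT1G08560, chromosome 1) is the syntaxin that fuses vesicles into the new cell plate and is made in dividing cells. Its arrays read 9.29, 9.26 and 9.02 in wild type, 8.69, 8.54 and 8.62 where labelled 35S::AVP1, and 9.10, 8.86 and 9.04 in the BRI1 line. Again the arrays labelled 35S::AVP1 lay below all 6 others. KN fell by 0.57 (log2), or 1.49-fold (SE 0.0933, adjusted p = 0.00317), and the call held in all 9 fits without 1 array, at adjusted p up to 0.0182. For the BRI1 line the difference was -0.19, with an interval of -0.40 to 0.02 and an adjusted p of 0.950. HINKEL (HIK, AT1G18370), the kinesin that lets the cell plate expand, varied more than KN between arrays of a genotype and was not called, at -0.22 (adjusted p = 0.519) and -0.06.

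D-type cyclins link growth signals to the start of division, and the CYCD3 subfamily prolongs the dividing stage of leaf cells. CYCD3;3 (AT3G50070, chromosome 3) had the largest log2 change of the 43 genes in the arrays labelled 35S::AVP1. It read 7.10, 7.05 and 6.85 in wild type, 6.34, 6.46 and 6.42 in the arrays labelled 35S::AVP1, and 7.24, 6.94 and 7.15 in the BRI1 line. The arrays labelled 35S::AVP1 stood apart below the other 6, among which wild type and the BRI1 line overlapped. Its log2 level fell by 0.59, or 1.51-fold (SE 0.0957, 95% interval -0.80 to -0.38, adjusted p = 0.0031), in all 9 fits without 1 array as well (adjusted p up to 0.0175). The BRI1 line differed from wild type by 0.11, with an interval of -0.10 to 0.32.

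The other 8 D-type cyclins measured were not called in any comparison. CYCD3;2 (AT5G67260) differed by -0.25 in the arrays labelled 35S::AVP1 (adjusted p = 0.177) and 0.05 in the BRI1 line, and CYCD3;1 (AT4G34160), a cyclin induced by cytokinin and sugar, by -0.09 and 0.06. CYCD6;1 (AT4G03270), known from formative divisions of the root, had a log2 difference of 0.23 (adjusted p = 0.238) in the arrays labelled 35S::AVP1 and 0.10 in the BRI1 line. For CYCD1;1 (AT1G70210), CYCD2;1 (AT2G22490), CYCD4;1 (AT5G65420), CYCD4;2 (AT5G10440) and CYCD5;1 (AT4G37630) the differences lay between -0.21 and 0.13 over both lines. Wild type levels in the family ran from 4.27 ± 0.15 (SD, n = 3) for CYCD6;1 to 9.16 ± 0.10 for CYCD3;2, and they are not ranked here because each locus has its own probes.

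None of the 8 A-type cyclins among the 43 genes was called in either line against wild type. The meiotic A-type cyclin CYCA1;2, which is not one of the 43, is given below with the other lists. CYCA1;1 (AT1G44110), the member of the family whose expression peaks nearest to mitosis, read 7.02, 7.004 and 6.88 in wild type, 6.77, 6.65 and 6.69 in the arrays labelled 35S::AVP1, and 6.88, 6.42 and 6.85 in the BRI1 line. Each line lay below wild type without overlap, by the narrowest margin in the BRI1 line. The log2 differences were -0.27 (adjusted p = 0.191) and -0.25 (adjusted p = 0.946), and the first was called only without BRI1 line replicate 2 (adjusted p = 0.0412). CYCA3;1 (AT5G43080), of a subfamily expressed in S phase, differed by 0.14 and -0.20, in opposite directions. The A2 cyclins restrain the endocycle together with B1-type CDKs. Over CYCA2;1 (AT5G25380), CYCA2;2 (AT5G11300), CYCA2;3 (AT1G15570), CYCA2;4 (AT1G80370), CYCA3;2 (AT1G47210) and CYCA3;4 (AT1G47230), differences ran from -0.19 to 0.04. CYCA2;1 was dim, at a wild type level of 3.75 ± 0.08 (SD, n = 3) and below the 10th percentile of 3 arrays. The family reached 7.97 ± 0.22 with the cyclin AT1G47210.

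None of the 8 KRP and SIM inhibitor genes was called in either line against wild type, and in the arrays labelled 35S::AVP1 they had 6 positive and 2 negative differences (5 and 3 with quantile normalization and with median centring) with a median of 0.09 (0.06 and 0.05 under these scalings). Over all loci 63.1% were positive in this comparison, with a median of 0.05. SIM (AT5G04470), which drives the endocycle in leaf hairs, had the largest difference, -0.36 on the log2 scale with an adjusted p of 0.128. It read 6.40, 6.70 and 6.92 in wild type, 6.52, 6.11 and 6.31 in the arrays labelled 35S::AVP1, and 6.66, 6.60 and 6.65 in the BRI1 line. One array labelled 35S::AVP1 lay above the lowest wild type array, so the groups overlapped, and the call was made only in the fit without wild type replicate 1 (adjusted p = 0.0323). Its relative SMR1 (AT3G10525) differed by 0.09 and 0.07.

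KRP proteins bind CDKs and D-type cyclins. KRP1 (AT2G23430), KRP3 (AT5G48820) and KRP5 (AT3G24810) had log2 differences of 0.18, 0.19 and 0.18 in the arrays labelled 35S::AVP1, at adjusted p of 0.304, 0.288 and 0.329. Against wild type the BRI1 line differed by -0.10, 0.00 and -0.25, and the adjusted p of KRP5 was 0.874 there. KRP2 (AT3G50630), KRP4 (AT2G32710) and KRP7 (AT1G49620) lay between -0.11 and 0.09 in both lines. The wild type levels of the 8 inhibitors ran from 4.62 ± 0.15 (SD, n = 3) for KRP5 to 8.50 ± 0.10 for SMR1.

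CCS52 proteins activate the anaphase-promoting complex, the A forms towards the endocycle and CCS52B around mitosis. CCS52B (AT5G13840) read 7.40, 7.38 and 7.08 in wild type, 6.92, 6.87 and 6.96 in the arrays labelled 35S::AVP1, and 7.03, 6.66 and 7.23 in the BRI1 line. The arrays labelled 35S::AVP1 lay below all wild type arrays, and the BRI1 line overlapped with both groups. Its log2 differences were -0.37 (adjusted p = 0.126) and -0.31 (adjusted p = 0.926), and the first was called only without BRI1 line replicate 2 (adjusted p = 0.0482). CCS52A1 (AT4G22910) differed by -0.31 (adjusted p = 0.143, and 0.0481 without wild type replicate 1) and -0.08, and CCS52A2 (AT4G11920) by 0.05 and -0.09. WEE1 (AT1G02970), the kinase that holds the cycle after DNA damage, differed by 0.01 and 0.14.

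Of the 43 genes, a set of 13 with a textbook role in mitosis or cytokinesis lay on the low side of wild type in both lines. This set of 13, grouped after the values had been seen and therefore not tested, holds the 7 B-type cyclins, CYCA1;1, both B2-type kinases, KN, HIK and CCS52B. CDKA;1, which acts in mitosis and at the start of S phase, is outside the set, with differences of 0.19 and -0.10. The kinase WEE1, with the positive differences given above for both lines, is outside it as well. All 13 log2 differences were negative in the arrays labelled 35S::AVP1, with a median of -0.27 and 4 calls, and all 13 were negative in the BRI1 line, at a median of -0.13 and with no call (smallest adjusted p 0.689, 3 with an unadjusted p under 0.05). Over all loci 4.76% were called lower in the first comparison, and 36.9% and 53.3% were negative. Because the 13 were chosen with their values known, these shares do not say how unusual the counts are. In a separate list of 12 spindle and cytokinesis genes, 4 differences were positive in the arrays labelled 35S::AVP1 and 2 in the BRI1 line. Quantile normalization and median centring left both counts of negative differences at 13. The 4 calls became 2 without wild type replicate 1 or 2 or without replicate 1 or 3 labelled 35S::AVP1, and in the last of these fits 11 of 13 were negative. The groups did not overlap for 7 of the 13 in the arrays labelled 35S::AVP1 and for 2 in the BRI1 line. Over all 43 genes the groups stood apart below wild type for 8 genes and above for 1 in the arrays labelled 35S::AVP1, where 9.63% of all loci did so below and 18.8% above. In the BRI1 line 4 genes stood apart below, beside 5.75% of all loci.

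Single arrays moved with this set. Wild type replicate 3 was the lowest of its genotype for 12 of the 13 genes, replicate 2 labelled 35S::AVP1 for 9 and BRI1 line replicate 2 for 11. The median deviation of the 13 genes from their wild type means was 0.11, 0.04 and -0.14 in the wild type arrays, -0.23, -0.42 and -0.22 in the arrays labelled 35S::AVP1, and -0.10, -0.25 and -0.12 in the BRI1 line. Each array labelled 35S::AVP1 was thus below each wild type array on this median, while 2 arrays of the BRI1 line lay slightly above wild type replicate 3. Without wild type replicate 3 the medians were -0.37 and -0.21, and without wild type replicate 1, the highest for 10 of the 13, they were -0.24 and -0.07, with 10 of 13 still negative in the BRI1 line.

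**Figure D2:**
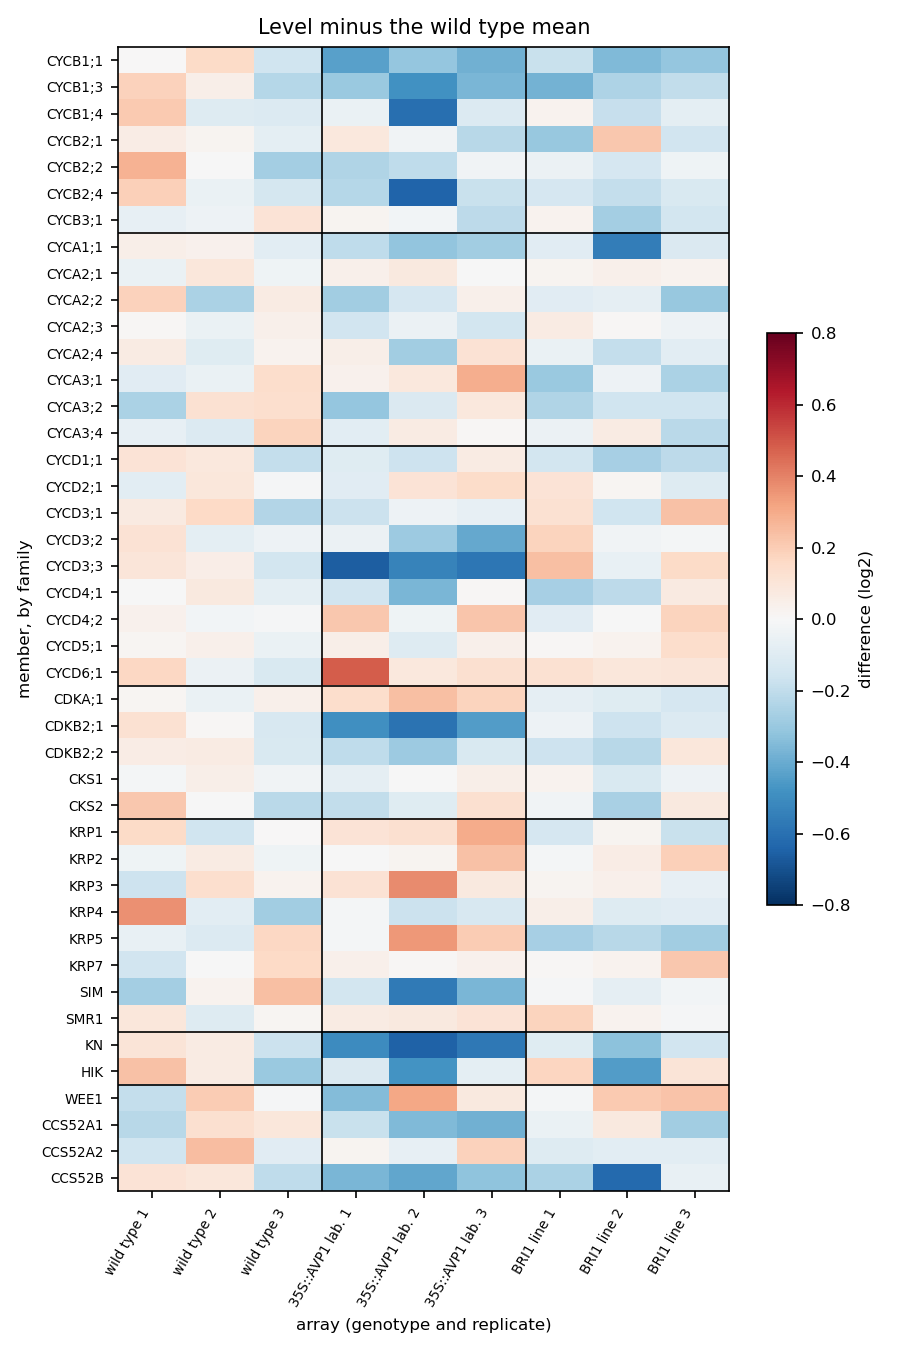
Level minus the wild type mean (log2, colour) for each of the 43 measured genes, in lines grouped by family, across the 9 arrays. The cells of CYCD3;3, CDKB2;1 and KN are at their lowest in the 3 arrays labelled 35S::AVP1. Wild type replicate 3 is the lowest of its genotype for 12 of the 13 genes of the mitosis and cytokinesis set.

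The intervals say how large a change in array signal could have been missed. The 95% interval of every one of the 43 log2 differences lay within 1 of zero in each of the comparisons. A change of more than 2-fold in signal thus lies outside the interval for each gene. For dim genes such as CYCA2;1, below the 10th percentile of 3 arrays, this does not bound the change in transcript. Within 0.5 of zero lay the whole interval of 31 genes in the arrays labelled 35S::AVP1 and of 40 in the BRI1 line. The median half-width was 0.228, and it ran from 0.139 to 0.417. For the BRI1 line the 4 genes with intervals that exclude zero were CYCB1;1, CYCB1;3 (-0.27, adjusted p = 0.847), KRP5 and CCS52B, before any adjustment for the number of loci.

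**Figure D3:**
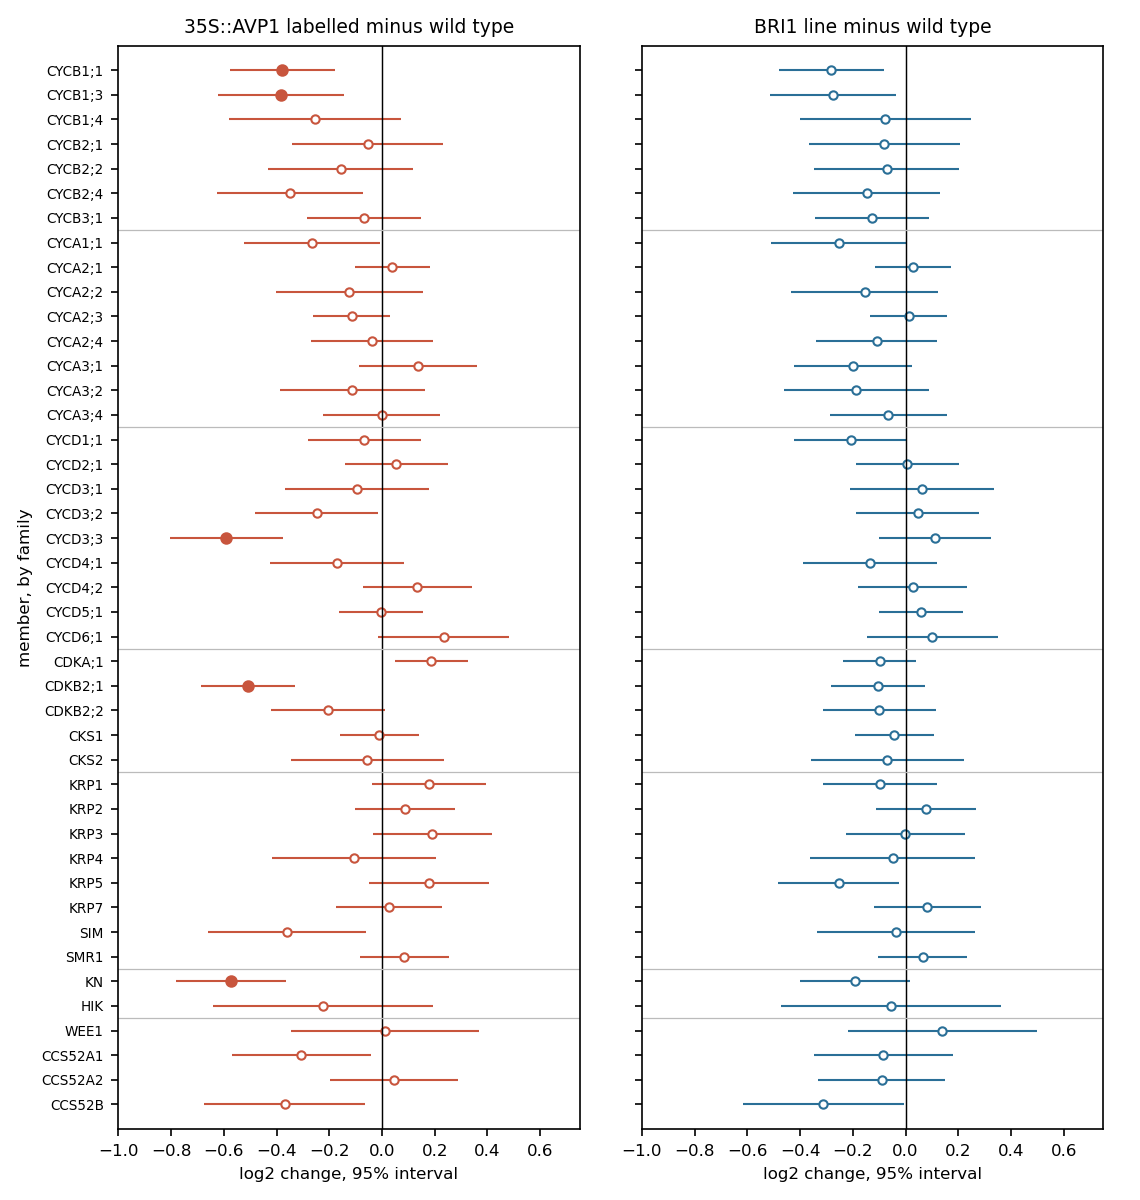
Log2 change of each of the 43 genes with its 95% interval (horizontal axis), by family, for the arrays labelled 35S::AVP1 (left) and the BRI1 line (right) against wild type. Filled points mark calls at an adjusted p under 0.05. They number 5 on the left, all below zero, and 0 on the right.

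Whether the lines differ from each other was tested directly, over the same 9 arrays. Of the 43 genes, 3 were called higher and 2 lower in the BRI1 line than in the arrays labelled 35S::AVP1, or 11.6%, beside 10.3% of all loci (4.05% higher and 6.27% lower). CYCD3;3 was 1.63-fold higher in the BRI1 line, with a log2 difference of 0.70 (95% interval 0.49 to 0.91, adjusted p = 0.00109). CDKB2;1 was higher by 0.40 (adjusted p = 0.0100), and both calls held in all 9 fits without 1 array, at adjusted p up to 0.0442. KN was higher by 0.38 (adjusted p = 0.0280), and this call was lost in 5 of the 9 fits, those without any 1 of the arrays labelled 35S::AVP1 or without BRI1 line replicate 1 or 3, with adjusted p up to 0.103. These genes are those given above as lower in the arrays labelled 35S::AVP1, which both comparisons share. The 2 B-type cyclins that fell in the arrays labelled 35S::AVP1 were not called here, with log2 differences of 0.10 (interval -0.10 to 0.30, adjusted p = 0.588) for AT4G37490 and 0.11 (interval -0.13 to 0.35, adjusted p = 0.614) for AT3G11520.

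The genes that were lower in the BRI1 line were the kinase CDKA;1 and the inhibitor KRP5. CDKA;1 differed by -0.28 on the log2 scale (SE 0.0621, adjusted p = 0.0165), and its level in every array is given above. KRP5 read 4.56, 4.52 and 4.79 in wild type, 4.61, 4.97 and 4.83 in the arrays labelled 35S::AVP1, and 4.36, 4.40 and 4.35 in the BRI1 line, which lay below the other 6 arrays. Its log2 difference was -0.43 (SE 0.102, adjusted p = 0.0243). After median centring neither was called, at -0.23 and -0.37 with adjusted p of 0.0621 and 0.0619, while both calls were kept with quantile normalization (0.0402 and 0.0384). The call of CDKA;1 was also lost without replicate 2 labelled 35S::AVP1 or without BRI1 line replicate 3, and that of KRP5 in 5 of the 9 fits, those without replicate 2 or 3 labelled 35S::AVP1 or any 1 array of the BRI1 line, with adjusted p up to 0.0886. The S phase cyclin CYCA3;1 came close, at -0.33 with an adjusted p of 0.0657. Non-overlapping groups were found for 6 genes higher and 6 lower in the BRI1 line, beside 9.36% and 21% of all loci.

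Regulators and partners of these genes were read from lists of the same pathways, whose counts stand beside 11.1% of all loci called in the arrays labelled 35S::AVP1 (4.76% lower, 6.31% higher). MYB3R factors bind the promoters of genes expressed in G2 and M phase, some as activators and some as repressors, and the GRAS protein SCL28 acts with them. Of 4 such genes measured (of 5 listed), SCL28 (AT1G63100) fell by 0.68 on the log2 scale in the arrays labelled 35S::AVP1 (adjusted p = 0.00144). It read 5.92, 5.96 and 5.87 in wild type, 5.48, 5.13 and 5.10 in the arrays labelled 35S::AVP1, and 5.59, 5.60 and 5.57 in the BRI1 line, so that both lines lay below wild type. The difference in the BRI1 line was -0.33 (adjusted p = 0.636), and SCL28 was higher by 0.35 in the BRI1 line than in the arrays labelled 35S::AVP1, at the edge of the threshold (adjusted p = 0.04998), a call lost in 8 of the 9 fits. MYB3R1 (AT4G32730), which can activate or repress mitotic genes, rose by 0.36 in the arrays labelled 35S::AVP1 (adjusted p = 0.00848) and was lower by 0.37 in the BRI1 line than in those arrays (adjusted p = 0.00679). The calls of these 2 genes against wild type held in all 9 fits without 1 array.

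Among 12 of 14 spindle and cytokinesis genes, 1 fell in the arrays labelled 35S::AVP1: PANS1 (AT3G14190), which protects the cohesion of sister chromatids, by 0.61 (adjusted p = 0.00468). The anaphase-promoting complex had 2 of 10 measured genes lower, its subunit APC10 (AT2G18290) by 0.59 (adjusted p = 0.00197) and SAMBA (AT1G32310), a plant regulator of the complex in early growth, by 0.51 (adjusted p = 0.0121). These 3 calls held in all 9 fits without 1 array. In the same arrays, differences were positive for 4 of the 12 spindle and cytokinesis genes and for 4 of the 10 genes of the complex. In the BRI1 line they were positive for 2 genes of each list. Of 11 S phase genes 2 fell, the sliding clamp PCNA2 (AT2G29570) by 0.44 (adjusted p = 0.0147) and the replication helicase subunit MCM7 (AT4G02060) by 0.31 (adjusted p = 0.0327). The call of PCNA2 was lost without wild type replicate 2 or replicate 1 labelled 35S::AVP1 (adjusted p up to 0.0546), and that of MCM7 in 5 of the 9 fits, without wild type replicate 2, any 1 array labelled 35S::AVP1 or BRI1 line replicate 3 (up to 0.103). Of 7 other cyclins and CDKs 2 rose, the meiotic cyclin CYCA1;2 by 0.35 and the CDK-activating kinase CDKD;2 by 0.28. The first call was lost without replicate 2 of either wild type or the arrays labelled 35S::AVP1 (adjusted p up to 0.0541). The second was lost after median centring, with only the 6 arrays compared, and in 3 fits, without wild type replicate 1 or 3 or replicate 1 labelled 35S::AVP1 (up to 0.0801). None of 8 G1 to S control genes and none of 12 endocycle genes was called.

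No gene of these 7 lists was called in the BRI1 line against wild type. The DNA replication licensing factor CDC6 (AT2G29680) had the largest difference among the genes named from them, -0.60, with an adjusted p of 0.112. Against the arrays labelled 35S::AVP1 it was lower by 0.40 (adjusted p = 0.0324). In that comparison the E2F factor E2FA was lower by 0.33 (adjusted p = 0.0220), the microtubule bundling protein MAP65-3 by 0.45 (adjusted p = 0.0217) and the complex subunit APC6 by 0.31 (adjusted p = 0.0153), as were CYCA1;2 by 0.28 and CDKD;2 by 0.27. SAMBA was higher by 0.50, PANS1 by 0.44 and PCNA2 by 0.35. With 1 array left out, the call of SAMBA was lost in 1 of 9 fits and those of the other 8 genes in 4 to 7. After median centring the calls of CDC6, E2FA, APC6, CYCA1;2 and CDKD;2 were lost, and with quantile normalization those of CDC6, CYCA1;2 and CDKD;2. CYCA1;2 was also lost with only the 6 arrays compared and with the replicate block (adjusted p = 0.0581).

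**Figure D4:**
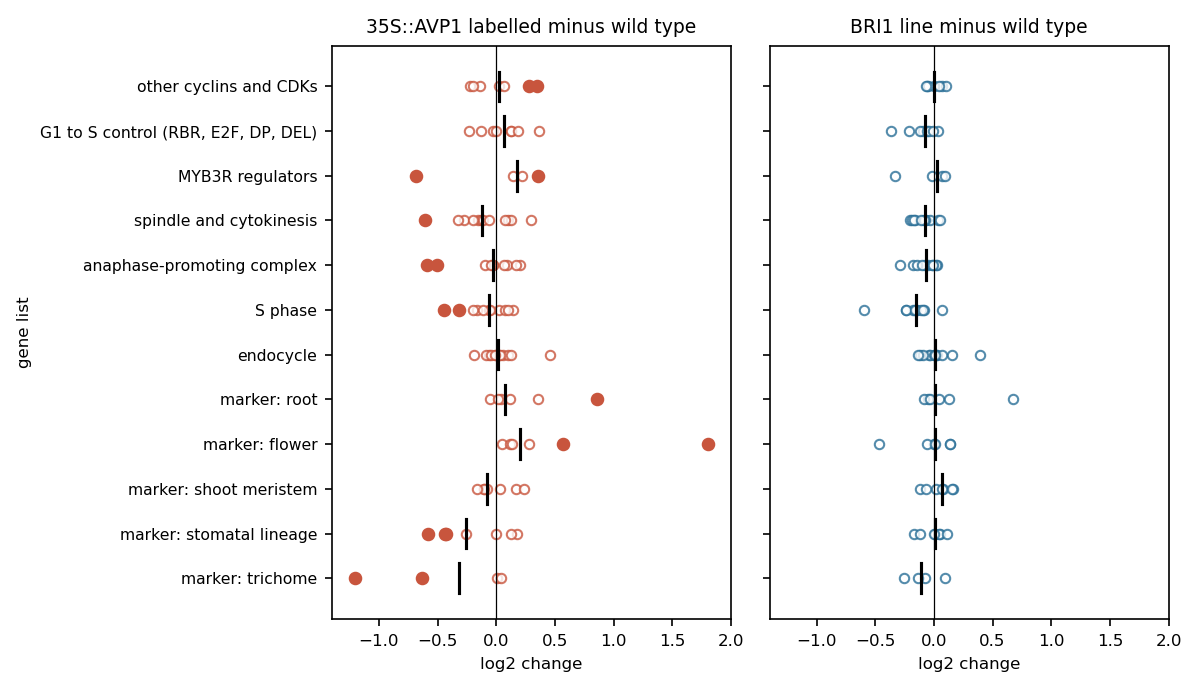
Log2 change of each measured gene of the 7 other cell cycle lists and the tissue marker lists except leaf (horizontal axis). There is 1 point per gene, for the arrays labelled 35S::AVP1 (left) and the BRI1 line (right) against wild type. Filled points mark calls at an adjusted p under 0.05, which occur on the left panel alone. The trichome gene GL2 at -1.20 and the floral gene SEP3 at 1.80 lie farthest out.

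Some markers of other tissues and cell types moved in the same arrays, against the same background shares of all loci. In the arrays labelled 35S::AVP1, 3 of 7 stomatal lineage genes fell, SPCH and TMM by 0.43 and SDD1 by 0.58, and their list's mean level was 6.14 to 6.29, against 6.33 to 6.48 in wild type and 6.26 to 6.49 in the BRI1 line. The other 4 were not called. Of these EPF2 had a negative difference, -0.25, and 3 had positive differences (MUTE 0.00, FAMA 0.18 and ERL1 0.12). The calls of SPCH, TMM and SDD1 were lost in 6, 2 and 5 of the 9 fits without 1 array, that of SPCH also with the replicate block (adjusted p = 0.0504) and that of SDD1 with only the 6 arrays compared. Of 4 trichome genes 2 fell, GL1 by 0.64 and GL2 by 1.20, and the mean level was 5.94 to 6.19, against 6.46 to 6.54 and 6.36 to 6.44. The other trichome genes, TTG1 and TRY, differed by 0.01 and 0.04. The floral genes SEP3 and AG rose by 1.80 and 0.57, or 2 of 6, with mean levels of 4.34 to 4.63 against 3.89 to 4.05 and 3.87 to 4.06, and AG lay below the 10th percentile of 7 arrays. The root gene PYK10 rose by 0.86, or 1 of 6, and the root genes had mean levels of 5.63 to 5.72 against 5.44 to 5.48 and 5.49 to 5.63, with IRT1 below the 10th percentile of all 9 arrays. The largest root difference of the BRI1 line from wild type was 0.68, and the smallest adjusted p in that list was 0.0902. Between the lines the 6 root differences ran from -0.23 to -0.001, and none was called. None of 7 shoot meristem genes was called against wild type in either line, at mean levels of 5.22 to 5.28 against 5.18 to 5.32 and 5.20 to 5.40. Of 4 leaf genes listed only PSBO1 was measured. It read 13.97 to 14.08 over the 9 arrays, close to the array maxima of 14.49 to 14.57. Between the lines, SPCH (0.43), TMM (0.48), GL1 (0.56), GL2 (0.94) and the meristem gene CLV1 (0.23) were higher in the BRI1 line than in the arrays labelled 35S::AVP1, and FAMA (-0.35), SEP3 (-2.27) and AG (-0.57) were lower. The calls of GL1, GL2, SEP3 and AG held in all 9 fits without 1 array, while TMM was lost in 1, SPCH and FAMA in 5 and CLV1 in 8. The replicate block ended the calls of SPCH, FAMA and CLV1 (adjusted p of 0.0509, 0.0502 and 0.0556). FAMA was also lost under both scalings, and SPCH and CLV1 with only the 6 arrays compared. No marker was called in the BRI1 line against wild type, and the part of these cell types in the changes of the cell cycle genes was not tested.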

How the data were processed

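Each of 9 ATH1 arrays gave 1 value for each of 20777 loci. The authors deposited log2 values and name RMA in the submitters' processing notes. Its version and the probe map are not given in the sources used. Per the labels each genotype has 3 biological repeats. The p-values test differences of means against the spread of these repeats, pooled over all 3 genotypes. Arrays give no counts, and the number of arrays limits the precision.

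From these values, limma 3.58.1 under R 4.3.3 estimated 1 mean per genotype for each locus (lmFit, then eBayes, 6 residual and 3.94 prior degrees of freedom). The 3 two-sided contrasts were each adjusted over the whole table (Benjamini-Hochberg) and called under 0.05. The code was tested on simulated data. Alternatives were 15 per contrast: quantile normalization, median centring, an intensity trend, only loci with a mean of at least 5, only the 6 arrays compared, the replicate number as a block and 9 fits without 1 array.

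The 44 genes, the 7 other cell cycle lists and the marker lists were chosen with earlier results of these data known. Values are given for every array for each gene called, and beyond these mainly for genes with the 5 largest log2 changes of a contrast. From the other lists called genes are named. SIM, CCS52A1, CDC6 and the remaining genes are named after their values were seen. Gene names follow RefSeq's TAIR10.1 gene table or common usage.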

Additional observations from a re-analysis of the deposited data

How the results depend on the processing

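Counts of called genes in the arrays labelled 35S::AVP1 against wild type were 5 as reported, 4 or 5 under the settings that keep all arrays, and 3 to 6 when 1 array was left out: 3 without wild type replicate 2 or without replicate 1 or 3 labelled 35S::AVP1, and 6 without BRI1 line replicate 2. For the BRI1 line against wild type no gene was called under any of the 15 settings. Between the lines the count of 5 was 3 after median centring, 4 with only loci with a mean of at least 5, and 7 with the replicate block. With 1 array left out it was 2 to 5. It was 2 without replicate 2 labelled 35S::AVP1 or BRI1 line replicate 3, and 3 without replicate 3 labelled 35S::AVP1 or BRI1 line replicate 1. The median log2 difference between the lines was 0.01 as reported, 0.073 after quantile normalization, and -0.013 to 0.080 with 1 array left out. The share of all called loci that were higher moved with the scaling, from 57.0% to 49.1% (quantile) and 47.3% (centring) in the arrays labelled 35S::AVP1 and from 39.2% to 52.4% and 56.4% between the lines. The cause of these shifts was not tested. No called gene reversed its direction.

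The replicate block gave 4 called genes in the arrays labelled 35S::AVP1, losing CYCB1;3 (adjusted p = 0.0593), and 7 between the lines, adding CYCD3;2 and CYCA3;1. The main fit did not take the numbers as pairs, because the labels give no batch. Deviations of same-numbered arrays correlated at 0.02 to 0.48 over 9 pairs, 5 of them over 0.1. Different-numbered arrays of 2 genotypes correlated at -0.50 to 0.49. Among arrays of another genotype, 7 of 9 arrays correlated best with an array of their own number. The exceptions, wild type replicate 3 and BRI1 line replicate 2, correlated best with each other, at 0.49 over all loci. They were also the lowest of their genotype for 12 and 11 of the 13 genes of the mitosis and cytokinesis set. A link between these 2 observations was not tested. Whether the numbers mark a shared batch was not tested. Signal is a limit for the dimmest gene, CYCA2;1, and for other dim genes. KRP5, called between the lines, read 4.35 to 4.97 over the 9 arrays and was removed by the filter for a mean of at least 5. The same filter removed CYCA1;2 and AG, called from the other lists.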
